A study of Mus musculus with 12 samples.

Results

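TRBJ1-5 is the fifth joining (J) segment of the first J cluster of the mouse T cell receptor (TCR) beta locus, and its clonotypes were followed here through TCR beta chain libraries of CD4+ T cells that had expanded in Rag2-/- hosts. A clonotype was counted as a TRBJ1-5 clonotype when TRBJ1-5 was the first J segment assigned to it. By this rule, 3439 of 113665 clonotypes in 12 libraries were TRBJ1-5 clonotypes, and they held 32845 of 1716882 unique molecular identifiers (UMIs, tags that count single cDNA molecules), or 1.91%. For 9 of the 3439 clonotypes another J segment was listed beside TRBJ1-5. The segment was chosen by its share of the repertoire, which was lower in KO than in WT libraries. Every difference between KO and WT below is therefore a description of the values that chose it, with no test.

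The donors were young adult C57BL/6 mice. WT donors carried floxed Prkaa1 (PRKAA1fl/fl), and KO donors carried CD4-Cre in addition (CD4-Cre PRKAA1fl/fl), which removes AMPKα1, a catalytic subunit of AMP-activated protein kinase, at the CD4+CD8+ thymocyte stage. Floxed alleles were thus present in both groups. Naive CD4+CD25-CD44-CD62L+ T cells were injected into Rag2-/- recipients, which have no mature T or B cells of their own, to model transfer colitis. The study reports weight loss, more severe disease and heavy T cell infiltration in recipients of WT cells. Recipients of KO cells kept their weight, with mild inflammation and fewer T cells, so disease differed between the groups. Donor T cells were taken after 6 weeks from mesenteric lymph nodes (mLN) and spleen of 3 WT mice (replicates 1, 3 and 4) and 3 KO mice (replicates 1, 2 and 3). The number of donors, and whether their cells were pooled, is not given in the sources used here, so p-values measure the spread between these recipients only.

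TCR beta genes are assembled in immature thymocytes, where the RAG recombinase first joins a diversity (D) segment to a J segment and then a variable (V) segment to this DJ join. Nucleotides are trimmed from the segment ends and others are added, and the resulting junction, the complementarity-determining region 3 (CDR3), makes most of the contacts with peptide. TRBD1 can join J segments of both clusters, whereas TRBD2 lies downstream of the first cluster and joins the second. A rearrangement that ends out of frame encodes no receptor chain and is carried along by a cell whose other allele was productive. CD4-Cre becomes active in CD4+CD8+ thymocytes, after beta chain selection in the normal order of thymocyte development.

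The germline sequence is shown because trimming and CDR3 ends are described against it below. Capitals mark the nucleotides that lie in the CDR3 when nothing is deleted. The sequence was read from GRCm38.p6 at chr6:41535084-41535133 on the plus strand, where GENCODE annotates the 50-nt J segment, and its length was the same in the alignments that the authors deposited.
TRBJ1-5: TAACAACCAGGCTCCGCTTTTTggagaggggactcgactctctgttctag
TRBJ1-6: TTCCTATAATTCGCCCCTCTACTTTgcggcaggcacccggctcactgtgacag
TRBJ1-6 (chr6:41535554-41535606, plus strand) is printed for comparison as the next segment downstream and the only other J segment of similarly low use. TRBJ1-5 can give 22 germline nucleotides to the CDR3. It lies 1872 bp downstream of TRBD1 and 7030 bp upstream of TRBD2. The heptamer that precedes it reads TACTGTG and has 6 of 7 letters of the consensus CACTGTG on the plus strand; among the 6 used segments of the cluster only TRBJ1-1 has all 7.

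Depth differed widely between libraries, from 2488 UMIs (KO replicate 3 mLN) to 493287 UMIs (WT replicate 3 spleen), and the number of TRBJ1-5 clonotypes ran from 4 in that smallest library to 1150 in WT replicate 4 spleen. The libraries also fell into groups that did not follow genotype. In spleen and mLN of both mice numbered replicate 1 and in KO replicate 3 mLN, few clonotypes of 1 UMI (2.42% to 5.85%) ended in CDR3 nucleotides unusual for their J segment, against 26.1% to 38.3% in the other 7. All 5 libraries with few such ends were smaller than the other 7, so both features cannot be told apart. Differences between genotypes are given within each kind as well.

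TRBJ1-5 took the smallest or next to smallest part of the repertoire among the 12 J segments in regular use. Its mean share of UMIs ranked 11th in WT spleen and 12th in KO spleen, WT mLN and KO mLN, with TRBJ1-6 as its neighbour in each. In WT spleen, TRBJ1-5 made up 2.31% ± 0.347 (SD, n = 3) and TRBJ1-6 made up 1.98% ± 0.492, with overlapping ranges. In WT mLN the order was turned, at 2.19% ± 1.02 for TRBJ1-5 and 2.72% ± 0.851 for TRBJ1-6, again with overlap. In KO spleen TRBJ1-5 had 0.834% ± 0.208 and TRBJ1-6 had 2.68% ± 0.923, and in KO mLN the values were 0.848% ± 0.301 and 3.36% ± 2.17. In both KO groups every library lay lower for TRBJ1-5 than any did for TRBJ1-6. The most used segment, TRBJ2-7, averaged 22.3% in WT and 19.8% in KO spleen.

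In spleen, the TRBJ1-5 share of UMIs was 2.05% (95% Wilson interval 1.80 to 2.33), 2.18% (2.14 to 2.22) and 2.71% (2.66 to 2.76) in WT replicates 1, 3 and 4. In KO replicates 1, 2 and 3 it was 0.788% (0.722 to 0.859), 1.06% (1.01 to 1.11) and 0.653% (0.620 to 0.688). All 3 KO spleens lay below all 3 WT spleens with intervals well apart, and the means differed by −1.48 percentage points (KO minus WT), a ratio of 2.77. In mLN the shares were 1.36% (1.17 to 1.58), 1.87% (1.77 to 1.97) and 3.33% (3.22 to 3.45) in WT, and 0.905% (0.792 to 1.03), 1.12% (1.06 to 1.18) and 0.523% (0.306 to 0.892) in KO. The mLN groups did not overlap, but the counting intervals of the highest KO and the lowest WT value did. The mLN means differed by −1.34 percentage points. The last KO value rests on 13 UMIs in 4 clonotypes. All intervals cover counting error only.

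**Figure D1:**
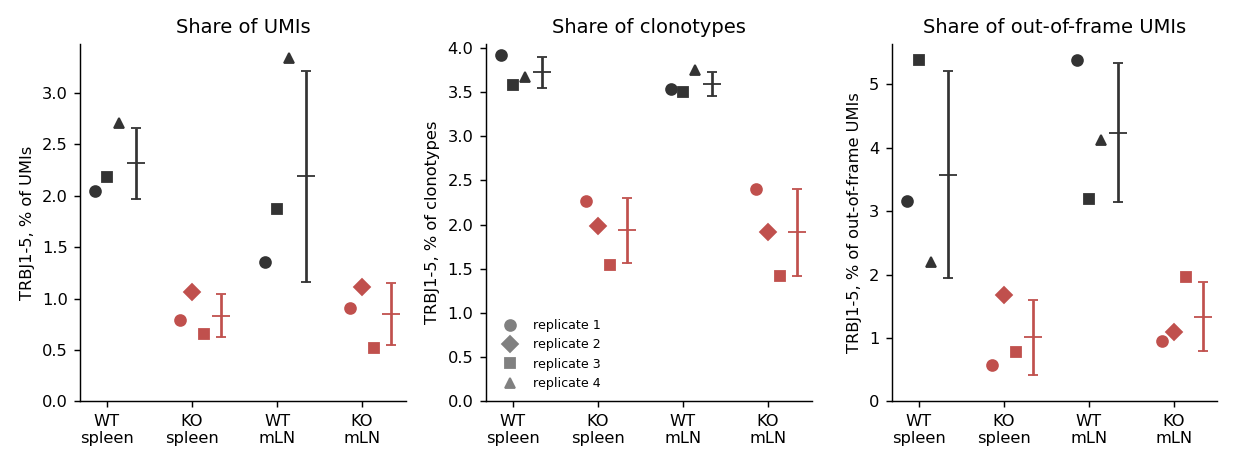
TRBJ1-5 share of UMIs, of clonotypes and of UMIs in out-of-frame clonotypes (y axes, percent) in the 4 groups of 3 libraries (x axes). Points are libraries with the marker giving the replicate number, bars to the right are mean ± SD, black is WT and red is KO. In each panel all KO libraries of an organ lie below all WT libraries of that organ. The nearest pairs are 1.36% against 1.12% of UMIs in mLN and 2.19% against 1.68% of out-of-frame UMIs in spleen. The out-of-frame KO mLN points rest on 7, 78 and 2 TRBJ1-5 UMIs in replicates 1, 2 and 3.

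Counting each clonotype once, with all CDR3 ends kept, gave a narrower spread in WT. TRBJ1-5 clonotypes were 3.92%, 3.58% and 3.66% of all clonotypes in WT spleen (replicates 1, 3 and 4) and 3.53%, 3.49% and 3.75% in WT mLN. In KO replicates 1, 2 and 3 they were 2.27%, 1.98% and 1.55% in spleen and 2.41%, 1.91% and 1.41% in mLN. The means differed by −1.79 percentage points in spleen and −1.68 in mLN (KO minus WT). The ratio of WT to KO was 1.93 in spleen and 1.88 in mLN for clonotypes, against 2.77 and 2.58 for UMIs. Among the 12 J segments in regular use, 8.33% (TRBJ1-5 alone) had every KO spleen below every WT spleen, by UMIs and again by clonotypes. In mLN these shares were 16.7% by UMIs, where TRBJ1-4 also did not overlap, and 8.33% by clonotypes. Since this contrast chose the segment, nothing is read from these counts. Within the libraries with few unusual ends, the UMI difference was −1.26 in spleen and −0.646 in mLN, and within those with many it was −1.59 and −1.49. These are differences of very few libraries: 1 KO against 1 WT (spleen, few), 2 against 2 (spleen, many), 2 against 1 (mLN, few) and 1 against 2 (mLN, many). The part of library kind in the genotype difference was not tested.

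The lower share was also present among out-of-frame clonotypes, which made no receptor chain. Of the UMIs in out-of-frame clonotypes, TRBJ1-5 held 3.16%, 5.39% and 2.19% in WT spleen (replicates 1, 3 and 4) and 0.567%, 1.68% and 0.780% in KO spleen (replicates 1, 2 and 3). In mLN it held 5.39%, 3.20% and 4.13% in WT and 0.949%, 1.10% and 1.96% in KO. Neither organ showed overlap by UMIs, but several of these shares rest on few UMIs and they carry no counting intervals. The KO mLN values rest on 7 of 738, 78 of 7089 and 2 of 102 UMIs. KO replicate 1 spleen had 11 of 1939 UMIs. WT replicate 1 had 22 of 697 in spleen and 29 of 538 in mLN. Whether the mLN groups differ beyond counting error was not tested. The mean difference was −2.57 percentage points in spleen and −2.90 in mLN, compared with −1.40 and −1.23 for in-frame clonotypes without a stop codon. These sets had unlike WT levels (3.58% and 4.24% out of frame, 2.22% and 2.06% in frame). As ratios of WT to KO, the UMI values were 3.54 out of frame and 2.71 in frame in spleen, and 3.17 and 2.49 in mLN. By number of out-of-frame clonotypes, WT spleen had 4.22% ± 1.04 and KO spleen 2.12% ± 0.878 without overlap, whereas the mLN groups overlapped at 4.37% ± 0.382 and 3.03% ± 1.94. By clonotypes the ratio of WT to KO was 1.99 out of frame and 1.93 in frame in spleen, but 1.44 and 1.99 in mLN. Among out-of-frame clonotypes of at least 2 UMIs with organs merged, the genotypes overlapped, with KO replicate 2 at 3.44% and WT replicate 4 at 3.39%. Counts were small: out-of-frame TRBJ1-5 clonotypes numbered 2 to 44 in a KO library and 6 to 153 in a WT library.

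Clone size was examined after the organs of each mouse were merged and clonotypes of 1 UMI were left out, which kept 596 of 3177 TRBJ1-5 clonotypes (39, 182 and 199 in WT replicates 1, 3 and 4, and 33, 74 and 69 in KO replicates 1, 2 and 3). Among clonotypes of 2 to 9 UMIs, the mean TRBJ1-5 share was 3.81% for WT and 2.80% for KO mice, a ratio of 1.36. Among clonotypes of 10 to 99 UMIs the values were 3.25% and 2.29%, a ratio of 1.42. Among clonotypes of 100 or more UMIs they were 2.71% and 0.856%, a ratio of 3.17. Among these classes the ratio was thus largest for clones of 100 or more UMIs. Clonotypes of 1 UMI are outside this comparison, so no rise over all clone sizes is read from it. Over all clonotypes of a library, the ratio was 1.93 in spleen and 1.88 in mLN. Without those of 1 UMI in the library, it was 1.42 and 1.99. Large clones also carry part of the UMI share that chose the segment. In that class the WT mice had 2.38%, 2.83% and 2.93% and the KO mice 0.735%, 0.988% and 0.845%, from 1, 19 and 19 WT and 1, 4 and 3 KO clonotypes. These size classes are in UMIs and so also depend on the depth of a library.

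**Figure D2:**
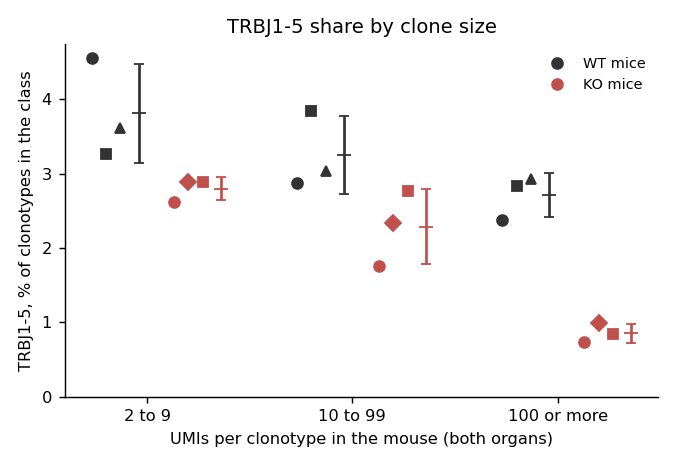
TRBJ1-5 share of clonotypes (y axis, percent) among clonotypes of 2 to 9, 10 to 99 and 100 or more UMIs in a mouse (x axis). Points are mice (circle, diamond, square and triangle for replicates 1, 2, 3 and 4), bars are mean ± SD of 3 mice. WT and KO mice do not overlap in any class, and in the largest class they stand at 2.38% to 2.93% and 0.735% to 0.988%.

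Within V segments the share showed the same direction for most partners. For the 13 V segments with at least 30 clonotypes of 2 or more UMIs in each mouse, the mean TRBJ1-5 share of the clonotypes using that V segment was lower in KO than in WT mice for 11 of 13. The same count was 4 to 8 of 13 for each of the other 11 J segments in regular use. TRBJ1-5 was chosen by this same share, which favours a high count, so nothing is read from the comparison. With TRBV5 the TRBJ1-5 share was 5.85% in WT and 1.75% in KO mice, and with TRBV13-2 it was 4.39% and 2.32%. With TRBV31, the V segment downstream of the constant genes that joins by inversion, the values were 3.25% and 3.13%. The share was higher in KO mice with TRBV13-1 (2.19% in WT, 2.92% in KO) and TRBV15 (2.56% and 3.53%).

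The contrast between organs had no part in the choice of the segment and was tested. The mLN and spleen shares of UMIs in 1 mouse were 1.36% and 2.05%, 1.87% and 2.18%, and 3.33% and 2.71% in WT replicates 1, 3 and 4. They were 0.905% and 0.788%, 1.12% and 1.06%, and 0.523% and 0.653% in KO replicates 1, 2 and 3. The share was higher in mLN in 3 of 6 mice. The log2 fold change of TRBJ1-5 in mLN against spleen was −0.07 ± 0.15 (SE, 6 mice; edgeR quasi-likelihood test with the mouse as a block, Benjamini-Hochberg adjusted p = 0.799). Of 12 J segments tested, 0 passed an adjusted p of 0.05, a share of 0%; 1 had an unadjusted p under 0.05 in edgeR and 1 in DESeq2, which also called 0.

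Over the 12 libraries, the J segments whose share of UMIs varied most like that of TRBJ1-5 were TRBJ2-2 (Pearson r = 0.498 of log2(percent + 0.1)) and TRBJ1-4 (r = 0.488). The V segments most like it were TRBV23 (r = 0.754), TRBV1 (r = 0.662) and TRBV3 (r = 0.619). These values describe 12 libraries from 6 mice, in which organs share a mouse and all shares of a library add up to a whole, and the genotype difference of TRBJ1-5 enters them.

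The V partners of TRBJ1-5 were compared with those of the other TRBJ1 segments in the same mice, a contrast that did not choose the segment. The most frequent partners were TRBV13-2 (11.2% ± 1.77 of TRBJ1-5 clonotypes of at least 2 UMIs, mean and SD of 6 mice), TRBV5 (10.8% ± 6.93), TRBV31 (10.5% ± 4.16), TRBV1 (9.27% ± 5.87) and TRBV2 (9.17% ± 3.26). Among clonotypes of the other TRBJ1 segments these V segments had 9.57%, 8.61%, 10.3%, 7.39% and 5.66%. TRBV2 was higher with TRBJ1-5 in 5 of 6 mice and had the smallest p of the test (log2 fold change 0.71 ± 0.27 SE, edgeR unadjusted p = 0.0105, adjusted p = 0.210). Of 20 V segments tested, 0 passed an adjusted p of 0.05, a share of 0%; 4 had an unadjusted p under 0.05 in edgeR, against 1 in DESeq2, which also called 0.

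TRBV3, TRBV19 and TRBV26 were named after their values were seen, because each was less frequent with TRBJ1-5 in 6 of 6 mice. TRBV3 had 4.81% against 7.71% (edgeR adjusted p = 0.212), TRBV19 had 4.35% against 7.39% (adjusted p = 0.212) and TRBV26 had 1.84% against 4.03% (adjusted p = 0.216). With TMM scaling, which shifted the median log2 fold change of all V segments from 0.07 to −0.23, 3 V segments passed in edgeR as less frequent with TRBJ1-5 (TRBV3, TRBV13-1 and TRBV19). On the same scaling the TRBV13-2 and TRBV5 fold changes turned to −0.03 and −0.10.

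**Figure D3:**
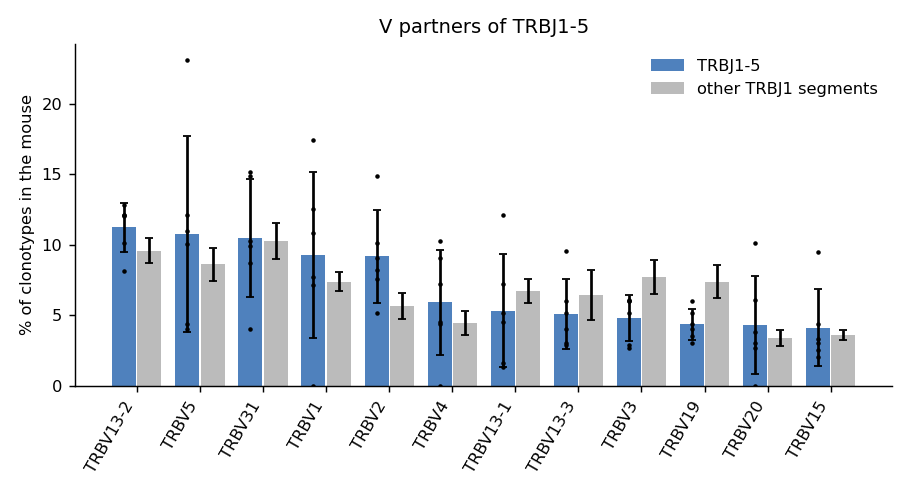
Share of clonotypes (y axis, percent of the clonotypes of a mouse) that use each of 12 V segments (x axis), for TRBJ1-5 (blue) and for the other TRBJ1 segments together (grey). Bars are means of 6 mice with SD, points are mice for TRBJ1-5. The spread between mice covers most differences; TRBV3 and TRBV19 are lower with TRBJ1-5 at 4.81% and 4.35% against 7.71% and 7.39%.

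Between genotypes the mean share of a partner differed most for TRBV5, with 14.7% of TRBJ1-5 clonotypes in WT and 6.84% in KO mice. The WT mean rests in part on replicate 1, with 23.1% of 39 clonotypes. Replicates 3 and 4 had 10.99% and 10.1%, and KO replicates 1, 2 and 3 had 12.1%, 4.05% and 4.35%, so that the groups overlapped.

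To describe the joins, 10 properties of TRBJ1-5 clonotypes were set against those of the other TRBJ1 segments within each mouse (two-sided exact sign-flip test over 64 patterns, smallest possible p = 0.031). Clone size and the share of clonotypes of 1 UMI counted among the 10 in the adjustment, but are parts of the UMI share that chose the segment, so their p-values are not read. With 10 properties, at least 7 would need this smallest p for any to reach an adjusted p below 0.05, and 3 had it, so 0 of 10 passed. The J end of TRBJ1-5 was trimmed by 2.62, 3.19 and 2.69 nt on average in WT replicates 1, 3 and 4 and by 2.88, 3.23 and 3.04 nt in KO replicates 1, 2 and 3. For the other TRBJ1 segments together, the mean of a mouse was 2.33 to 2.67 nt. The mean difference was 0.479 nt, higher in 5 of 6 mice (p = 0.0625 by exact sign-flip, 0.125 adjusted). It was 0.201 nt against all other J segments and 0.206 nt when clonotypes were weighted by UMIs, each higher in 4 of 6 mice. Among single segments, TRBJ1-6 (4.46 nt) and TRBJ1-4 (3.20 nt) were trimmed more and TRBJ1-3 (1.26 nt) least. Of the 596 TRBJ1-5 clonotypes, 21.5% had an untrimmed J end. These included the 15.4% in which palindromic (P) nucleotides, which opening of the coding hairpin can leave, were read next to it.

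The interval between the end of V and the start of J, which holds D and added nucleotides, is described next. With TRBJ1-5 it measured 9.26, 8.18 and 8.49 nt in WT replicates 1, 3 and 4. In KO replicates 1, 2 and 3 it measured 8.39, 9.58 and 8.29 nt. For the other TRBJ1 segments together, the mean of a mouse was 7.95 to 8.17 nt. Singly, these segments ran from 7.27 nt (TRBJ1-3) to 8.47 nt (TRBJ1-4), against 8.70 nt for TRBJ1-5. The difference from the other segments together, 0.647 nt, had the same sign in 6 of 6 mice (p = 0.031 by exact sign-flip, 0.104 adjusted). Against all other J segments it turned to −0.303 nt (higher in 2 of 6 mice), and with clonotypes of 1 UMI kept it was 0.361 nt (higher in 4 of 6). The V end lost 2.63 nt with TRBJ1-5 and 2.37 nt with the others together (difference 0.264 nt, higher in 5 of 6 mice, p = 0.0938 by exact sign-flip, 0.134 adjusted). With single other segments it lost 2.28 nt (TRBJ1-2) to 2.56 nt (TRBJ1-4). In-frame CDR3 length was nearly equal at 41.1 ± 0.508 and 41.2 ± 0.142 nt (SD over 6 mice; exact sign-flip p = 0.75), and the commonest TRBJ1-5 lengths were 39 nt (29.9% of 492 in-frame clonotypes) and 42 nt (25.8%).

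TRBD2 made up 6.99% ± 1.83 of D calls in TRBJ1-5 clonotypes and 9.31% ± 1.23 in those of the other TRBJ1 segments together. The share with TRBJ1-5 was lower in 6 of 6 mice (difference −2.32 percentage points, p = 0.031 by exact sign-flip, 0.104 adjusted). Singly, the other segments ran from 8.32% (TRBJ1-1 and TRBJ1-2) to 12.1% (TRBJ1-3). With clonotypes of 1 UMI kept, the difference was −1.32 and TRBJ1-5 was higher in 2 of 6 mice, and weighted by UMIs it turned to 0.324. A D call above is the first D segment listed, also where both matched, so these TRBD2 calls are not read as use of TRBD2. Over the 596 clonotypes, 46.0% matched TRBD1 only, 3.36% TRBD2 only and 16.6% both. No D call was made for 34.1%, as D segments are short and trimmed at both ends. Among the other TRBJ1 segments in regular use, TRBD2-only calls ranged from 3.14% (TRBJ1-2) to 4.74% (TRBJ1-3), so TRBJ1-5 was not the lowest by this measure. For second-cluster segments they ranged from 29.0% to 43.7%.

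Clone size is part of the UMI share that chose the segment and is given as a description. Among clonotypes of at least 2 UMIs, those with TRBJ1-5 had fewer UMIs on average than those of the other TRBJ1 segments in 6 of 6 mice. The mean log10 UMIs per clonotype was 0.736, 0.968 and 0.895 in WT replicates 1, 3 and 4, against 0.857, 1.01 and 0.938 for the other segments. In KO replicates 1, 2 and 3 it was 0.847, 0.875 and 0.875 against 1.03, 1.07 and 1.11. The mean difference was −0.136, and it was −0.0686 over WT and −0.204 over KO mice. With clonotypes of 1 UMI kept it was −0.0272, and TRBJ1-5 was then higher in 2 of 6 mice. For the 5 segments beside TRBJ1-5 the mean log10 UMIs ranged from 0.986 to 1.01, so TRBJ1-5 lay lowest at 0.866.

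**Figure D4:**
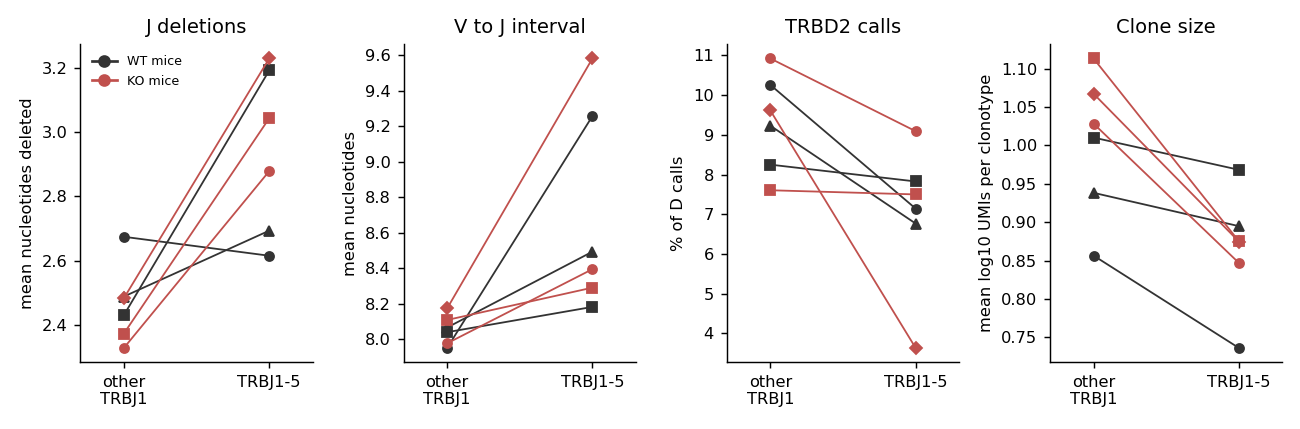
Mean J deletions and mean V to J interval (nucleotides), TRBD2 share of D calls (percent) and mean log10 UMIs per clonotype for the other TRBJ1 segments and TRBJ1-5 (x axis) in 6 mice, over clonotypes of at least 2 UMIs. Each line is a mouse, black for WT and red for KO, with markers for replicates as before; y axes do not start at 0. Lines run upward in 5 of 6 mice for J deletions and in 6 of 6 for the interval, and downward in 6 of 6 for TRBD2 calls and clone size.

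The remaining properties varied more between mice than between segments. Out-of-frame clonotypes were 17.3% ± 5.60 of TRBJ1-5 and 16.3% ± 2.38 of other TRBJ1 clonotypes (exact sign-flip p = 0.656). Clonotypes of 1 UMI were 64.9% and 67.3%. Of the spleen clonotypes, 51.1% ± 26.3 with TRBJ1-5 and 54.3% ± 26.4 with the others were found in mLN of the same mouse. The paired difference was −3.15 percentage points, with TRBJ1-5 higher in 1 of 6 mice (p = 0.0938 by exact sign-flip, 0.134 adjusted). Weighted by UMIs it was −8.01 (higher in 0 of 6), and with clonotypes of 1 UMI kept it was 0.375 (higher in 3 of 6). The lowest overlap, 5.80%, was that of KO replicate 3, whose mLN library was the smallest. When the pairing by mouse was ignored, 5 of 10 properties passed at an adjusted p of 0.0216 to 0.0476 (exact permutation test of 6 against 6 values): J deletions, V deletions, the V to J interval, TRBD2 calls and clone size, the last of which is not read as a test. That comparison treats values of the same mouse as independent.

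The largest TRBJ1-5 clonotype of each mouse is printed with its CDR3 to show the joins that carried most UMIs. Capitals mark the part that was aligned to TRBJ1-5.
WT replicate 1: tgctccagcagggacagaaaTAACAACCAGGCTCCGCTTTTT
WT replicate 3: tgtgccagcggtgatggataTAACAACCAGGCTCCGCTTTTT
WT replicate 4: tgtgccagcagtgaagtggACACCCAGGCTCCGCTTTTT
KO replicate 1: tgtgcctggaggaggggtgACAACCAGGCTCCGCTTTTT
KO replicate 2: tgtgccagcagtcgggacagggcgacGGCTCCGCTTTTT
KO replicate 3: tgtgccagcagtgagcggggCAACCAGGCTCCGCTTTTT
All 6 were in frame and each used another V segment, in this order TRBV23, TRBV13-2, TRBV13-3, TRBV31, TRBV14 and TRBV13-1. The J end was untrimmed in the first pair and had lost 2, 2, 9 and 3 nt in the others. As aligned, the clonotype of WT replicate 4 differed from the germline segment by A6C, counted from 1 at the 5′ end of TRBJ1-5. Whether the bases up to this position came from TRBJ1-5 or were added was not tested, so its loss of 2 nt is the aligned value only.

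None of these clonotypes was the largest of its mouse. They ranked 41st, 22nd and 17th in WT replicates 1, 3 and 4 (102, 3179 and 3902 UMIs over both organs) and 36th, 73rd and 225th in KO replicates 1, 2 and 3 (390, 832 and 179 UMIs). In spleen they took 0.745% (0.602 to 0.922), 0.564% (0.544 to 0.585) and 0.739% (0.715 to 0.765) of UMIs in WT, and 0.467% (0.417 to 0.522), 0.352% (0.324 to 0.383) and 0.0810% (0.0700 to 0.0938) in KO. In mLN the shares were 0.150%, 0.578% and 0.676% in WT and 0.366% and 0.222% in KO replicates 1 and 2. The clonotype of KO replicate 3 had 0 of 2488 UMIs in mLN, which allows a share of up to 0.121%. Within TRBJ1-5 the largest clonotype held between 12.3% (KO replicate 3) and 53.7% (KO replicate 1) of the UMIs of a mouse. With the largest TRBJ1-5 clonotype of each library left out, the spleen difference was −1.11 and the mLN difference −1.22 percentage points of UMIs, and neither pair of groups overlapped.

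Few TRBJ1-5 clonotypes were found in more than 1 mouse. Of 588 distinct clonotypes of at least 2 UMIs, 8 (1.36%) reached 2 UMIs in 2 mice and 0 in more, compared with 173 of 5988 (2.89%) for the other TRBJ1 segments. The 3 of these with most UMIs are printed because one also is the largest clonotype of a mouse.
TRBV13-2, first: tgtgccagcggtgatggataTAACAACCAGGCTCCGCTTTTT
TRBV13-2, second: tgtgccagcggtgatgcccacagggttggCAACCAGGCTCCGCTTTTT
TRBV5: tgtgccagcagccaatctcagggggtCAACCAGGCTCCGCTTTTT
The first had 3179 UMIs in WT replicate 3 and 2 in WT replicate 4, the second 3 and 2366, and the TRBV5 clonotype 2068 and 2. Each was thus very frequent in one mouse and at the limit of counting in the other. Over all TRBJ1-5 clonotypes, 14 of 3439, in 6 libraries, had a share 100 or more times as high in a different mouse; whether molecules passed between libraries was not tested. Counts were closer in WT replicates 3 and 4 for some of the other joins, named after their values were seen: a TRBV13-3 clonotype with 16 and 8 UMIs and a TRBV31 clonotype with 5 and 8 UMIs in WT replicates 3 and 4. The TRBV13-3 clonotype also had 1 UMI in KO replicate 1 and 1 in KO replicate 2.

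The last 9 CDR3 nucleotides of TRBJ1-5 clonotypes, ccgcttttt in the germline, were altered in 1594 of 3439 clonotypes (46.4%), which held 5.08% of their UMIs. Of these 1594, 1555 had 1 UMI. The commonest changes, with positions counted from 1 at the first of the 9 nucleotides, were C4T (301 clonotypes), C2A (164) and C2T (100) alone, and C2A with C4T (135). Position 4 differed in 28.5% and position 2 in 24.6% of clonotypes, and the last 3 positions in 0.349% to 1.66%. The other TRBJ1 segments in regular use had unusual ends in 21.6% (TRBJ1-6) to 51.5% (TRBJ1-2) of clonotypes. A clonotype with the usual end and otherwise the same CDR3 was found in the same library for 6.46% of the unusual TRBJ1-5 ends. Among clonotypes of at least 2 UMIs, unusual ends made up 5.51% ± 3.57 with TRBJ1-5 and 2.33% ± 1.32 with the other TRBJ1 segments together. The value of TRBJ1-5 was higher in 5 of 6 mice (p = 0.0625 by exact sign-flip, 0.125 adjusted). This was not particular to TRBJ1-5, as TRBJ1-2 alone had 6.02% ± 4.12. The remaining segments of the cluster had 1.31% (TRBJ1-6) to 1.91% (TRBJ1-1).

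**Figure D5:**
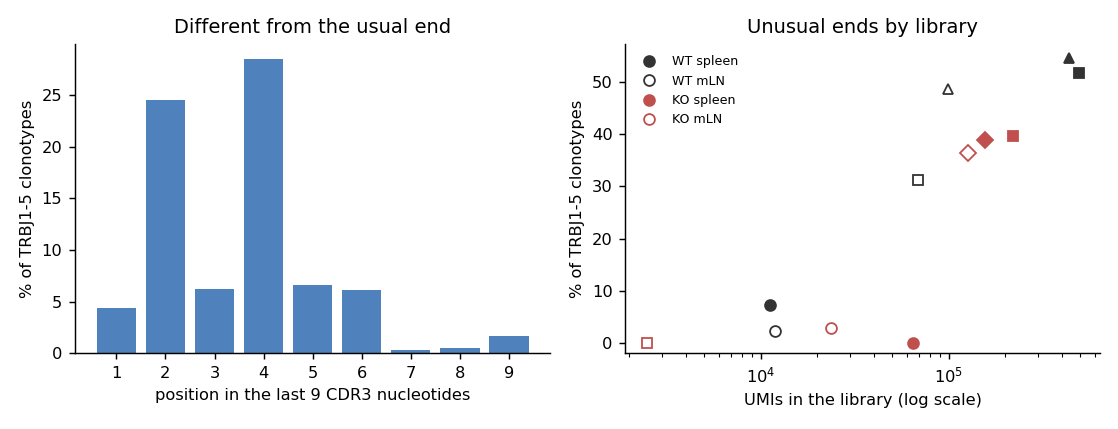
Left, percent of 3439 TRBJ1-5 clonotypes (y axis) that differ from the usual end at each of its 9 positions (x axis). Right, percent of TRBJ1-5 clonotypes with an unusual end (y axis) against UMIs in the library (x axis, log scale), with marker shapes for replicates, black for WT, red for KO, filled for spleen and open for mLN. Positions 2 and 4 stand out at 24.6% and 28.5%, and libraries of up to 64882 UMIs have at most 7.32% unusual ends against 31.2% or more in the larger ones.

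Unusual ends touch the clonotype shares. Their part of TRBJ1-5 clonotypes ran from 0% to 54.6% between libraries, and the highest values were those of WT replicate 4 spleen (54.6%) and WT replicate 3 spleen (51.7%). With usual ends only, the TRBJ1-5 share of clonotypes was 2.87% ± 0.726 in WT and 1.76% ± 0.508 in KO spleen. In mLN it was 3.005% ± 0.494 and 1.80% ± 0.494, with no overlap in either organ. The WT spleens then spread more widely than with all ends kept (SD 0.174). The share of UMIs hardly moved, to 2.26% and 0.810% in spleen and 2.13% and 0.839% in mLN.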

How the data were processed

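According to the study's methods, the authors reverse transcribed RNA of CD4+ T cells with mouse TCR beta constant region primers, added UMIs by 5′ RACE, read paired ends by MiSeq, grouped and error-corrected reads by UMI in MIGEC and called clonotypes in MiXCR with its defaults. Tool versions and the segment reference are not given in the sources used here. Clone counts as deposited are whole and were taken as counts of UMIs; the deposited fraction equals that count over the library total and was used as a check. The authors downsampled before their own analysis, but the deposited tables are not downsampled, so depth (2488 to 493287 UMIs) limits rare clonotypes. UMI errors or clone merging before deposition could not be redone. Trimming was read from the deposited alignment positions.

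Intervals printed with shares are Wilson 95% intervals, and 3 counts of the total set the limit for a count of 0. Organs were compared by edgeR 4.0.16 (R 4.3.3) on UMIs per J segment, and V partners on clonotypes of at least 2 UMIs per mouse, with totals as library sizes, at least 10 counts in at least 3 columns, Benjamini-Hochberg adjustment and the mouse as a block; DESeq2 1.42.0 was an alternative. Properties were tested by exact sign-flip in Python 3.11.15. Scripts were tested on simulated data. SE values were derived from the fold change and F statistic. Labels pair organs by genotype and replicate number; deviations of organs of 1 mouse from their group means in J usage correlated at 0.725 (6 pairs, at least 0.549). WT and KO of the same number are different mice (mean correlation −0.214, 4 pairs). P-values over recipients measure the spread between these mice. The members, gene lists and tests were chosen with earlier results of these data known. Named segments were TRBJ1-5, its 5 most frequent V partners and any V past the test. The 2 J and 3 V segments most correlated with it were also named. Named clonotypes were the largest TRBJ1-5 clonotype of each mouse and 3 of the 8 that reached 2 UMIs in 2 mice. All 8 tied by number of mice, so the 3 with most UMIs were taken. GENCODE M21 and GRCm38.p6 gave germline sequence; the build behind the deposited calls was not stated.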

Additional observations from a re-analysis of the deposited data

How the results depend on the processing

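The KO minus WT differences in TRBJ1-5 share kept their sign under all alternatives tried. These differences chose the segment, and its KO and WT libraries did not overlap in either organ. Leaving out a mouse or comparing part of the same libraries could therefore not turn the sign, and shows only how far the size moved. Of UMIs, the spleen difference (−1.48 percentage points) was −2.57 for out-of-frame clonotypes, −4.59 as a share of the TRBJ1 cluster and −1.11 without the largest TRBJ1-5 clonotype, and the mLN difference (−1.34) was −2.90 and −4.09 under the first pair of these. Of clonotypes, the spleen difference (−1.79) was −1.03 with at least 2 UMIs, −1.10 with usual J ends, −2.10 for out-of-frame clonotypes and −4.78 in the TRBJ1 cluster, and the mLN difference (−1.68) was −1.20 with usual ends and −4.69 in the cluster. Leaving out each mouse gave −1.61 to −1.28 and −1.96 to −1.60 in spleen (UMIs, clonotypes) and −1.75 to −0.767 and −1.93 to −1.43 in mLN; the mLN UMI difference was −0.767 without WT replicate 4, whose share was the highest. With the replicate block over numbers 1 and 3, the differences were −1.40 and −1.84 in spleen and −0.901 and −1.60 in mLN. Drawn down to 2488 UMIs, they were −1.51 and −1.74, and −1.34 and −1.42. The split by unusual ends was chosen after seeing the data.

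The organ fold change, small throughout, turned to 0.0405 without WT replicate 1 (range −0.155 to 0.0405 leaving out each mouse; adjusted p 0.656 to 0.979 over all alternatives) and was −0.03 with no replicate block. V partner calls numbered 3 under TMM scaling and 0 under every other alternative, including no replicate block and each mouse left out (0 to 0). V partners not past the test changed sign in log2 fold change: TRBV13-2 to −0.14 by UMIs and −0.0266 by TMM; TRBV5 to −0.24 with all clonotypes, −0.43 by UMIs and −0.10 by TMM; TRBV31 to 0.24 by UMIs and 0.119 without WT replicate 4 (−0.337 to 0.119 leaving out each mouse); TRBV1 to −0.22 with all clonotypes and −1.55 by UMIs. Their cause was not tested.

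Of 10 properties, 5 passed with no replicate block and 0 otherwise (0 to 0 leaving out each mouse, where 5 mice allow no p under 0.0625). Signs turned for CDR3 length (0.478 nt weighted by UMIs, 0.0185 in spleen, 0.0472 without WT replicate 3, 0.0582 without KO replicate 3, in a range from −0.207), V deletions (−0.0122 nt weighted), the V to J interval (−0.303 nt against all other J segments), out-of-frame share (−1.11 points at 5 or more UMIs, −0.726 in spleen, −0.539 without KO replicate 2, in a range to 2.29), TRBD2 calls (0.324 points weighted), 1-UMI share (6.13 points in mLN) and spleen clonotypes found in mLN (0.375 points with all clonotypes). Clone size and J deletions kept their sign, but clone size shrank from −0.136 to −0.0272 with all clonotypes, and J deletions from 0.479 nt to 0.201 against all other J segments and 0.206 weighted. No UMI-weighted value exists for the 1-UMI share and clone size, and the 1-UMI share has none with all or with 5 or more UMIs, the overlap of organs none in mLN alone and unusual ends none among usual ends.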
